A study of Mus musculus with 3 samples.

Results

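The genes described here are 5 genes that are known to respond to TGF-β or to act on its signal: Pmepa1, Tgfbi, Ltbp1, Ltbp2 and Smad7. They were chosen by name, and all 5 are among the 50507 genes of the count table. The cells were primary mouse embryonic fibroblasts (MEFs) of wild-type BL6 mice at passage 2, transduced at a multiplicity of infection of 1 with a lentiviral cassette that carries Oct4, Sox2, Klf4 and c-Myc under doxycycline control, and with rtTA. All reprogramming medium held 10% serum, 2 µg/mL doxycycline, 3 µM chiron, 50 µg/mL ascorbic acid, LIF and 0.25 µM of an Alk5 inhibitor, which blocks the kinase of the type I TGF-β receptor. RNA was measured in bulk by CEL-Seq2, which counts transcripts at their 3′ ends with molecular barcodes, in 3 sequenced pools of 1 replicate each. Untransfected cells were harvested daily, on days 0 to 6, which are written Day00 to Day06. A further 35 conditions were read at day 6 after a transfection 24 h before induction, either with 40 nM of pooled siRNAs (33 targets, or the control siRNA written nt) or as Mock, a control whose make-up the labels do not give. The condition of each library comes from its column name, and day 0 is the day on which this medium was added, per the study's methods. No later day without the inhibitor is analysed here, so that the inhibitor, the transgenes and the other additives cannot be told apart.

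TGF-β is secreted in a latent complex, in which latent TGF-β binding proteins tether it to the matrix. Once released, it joins type II and type I receptors, and the type I receptor Alk5 (Tgfbr1) phosphorylates Smad2 and Smad3, which enter the nucleus with Smad4. Fibroblasts respond with matrix, cytoskeletal and feedback genes. Among the 5 genes, Pmepa1 and Smad7 code for feedback inhibitors of the receptor signal, Tgfbi for a secreted matrix adhesion protein, and Ltbp1 and Ltbp2 for the matrix binding proteins, of which Ltbp1 binds latent TGF-β and Ltbp2 does not.

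In GENCODE vM21 on GRCm38, Pmepa1 lies on chromosome 2 at chr2:173224458-173276533, minus strand, and Tgfbi at chr13:56609523-56639562, plus strand. Ltbp1 lies at chr17:75005568-75392512 on the plus strand and overlaps a processed pseudogene of the same strand, Gm6276. Ltbp2 lies at chr12:84783212-84876532 on the minus strand and overlaps an antisense gene, D030025P21Rik. Reads of overlapping genes may be shared, and the strand setting of the counting is not given in the sources used here. RefSeq promoter windows on GRCm38.p6 matched 3 of the 5 genes, with 4 start sites. They are shown because Ltbp1 and Ltbp2 code for related proteins, and Ltbp2 passed the test over the time course while Ltbp1 did not. Each stretch is the 250 bases before the start, 5′ to 3′ on the gene's strand, with CAGAC, the core of a SMAD binding element, in capitals on either strand (GTCTG on the other). Their positions are chr17:75005279-75005528 and chr17:75178531-75178780 for Ltbp1, chr12:84876492-84876741 for Ltbp2 and chr13:56609336-56609585 for Tgfbi.
Ltbp1 upstream start: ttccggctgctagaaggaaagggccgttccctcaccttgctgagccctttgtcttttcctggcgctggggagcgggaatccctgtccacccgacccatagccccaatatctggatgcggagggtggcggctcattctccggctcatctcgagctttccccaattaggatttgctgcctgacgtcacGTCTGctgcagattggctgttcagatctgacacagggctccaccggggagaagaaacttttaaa
Ltbp1 downstream start: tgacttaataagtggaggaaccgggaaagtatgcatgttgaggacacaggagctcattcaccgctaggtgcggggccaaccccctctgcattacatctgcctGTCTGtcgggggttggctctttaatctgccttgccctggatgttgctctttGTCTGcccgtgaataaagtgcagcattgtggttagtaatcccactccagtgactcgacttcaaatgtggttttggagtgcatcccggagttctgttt
Ltbp2: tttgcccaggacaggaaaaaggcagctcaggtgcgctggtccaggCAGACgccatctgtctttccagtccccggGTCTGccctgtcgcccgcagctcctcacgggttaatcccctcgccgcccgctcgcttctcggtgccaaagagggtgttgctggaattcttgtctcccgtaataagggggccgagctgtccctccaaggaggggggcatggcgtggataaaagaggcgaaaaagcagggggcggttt
Tgfbi: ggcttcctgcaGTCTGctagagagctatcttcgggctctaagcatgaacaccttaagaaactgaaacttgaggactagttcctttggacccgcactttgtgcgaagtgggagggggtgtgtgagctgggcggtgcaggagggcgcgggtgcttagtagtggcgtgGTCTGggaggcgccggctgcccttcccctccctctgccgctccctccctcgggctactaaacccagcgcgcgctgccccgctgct
The upstream Ltbp1 window held 1 match and each of the other windows held 2. Of 32851 promoters of the same length, 42.2% held at least 1 match, so that a match is common. The AP-1 motif TGANTCA, whose other strand has the same form, was in none of the 4 windows and in 6.75% of all promoters.

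The siRNAs behind the called differences of the screen are shown next, since each condition received a pool. Per the study's methods a pool held 3 siRNAs, and the list read here gives 2 guide strands for Bard1 and 2 for Wdr5, printed 5′ to 3′ with bases 2 to 8, the seed, in capitals.
Bard1 guide, exon 2: aGAAGAUGugcucacaucctc
Bard1 guide, exon 3: uUGUCGGUuuaucuugaggtc
Wdr5 guide, exon 3: cAUAGUUUggcuuaacuggtg
Wdr5 guide, exon 7: cACGGUUGaaaugaacggctg

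Depth ran from 29656 to 235292 counts over the 127 libraries analysed (median 73279), and every condition had 3 libraries except Mock with 5 and siMtf1 with 2. 2 libraries with 6403 and 7981 counts were left out, since the authors' normalized table does not hold them. Levels are given as CPM, the counts per 1000000 of a library's total over tested genes after TMM scaling. Over the libraries, Ltbp1 had 628 counts, Pmepa1 341, Tgfbi 114, Ltbp2 111 and Smad7 62. Only Pmepa1 and Ltbp1 passed the low-count filter of 3013 genes, so the other 3 were tested in a second fit of 10366 genes with at least 50 counts. Pmepa1 passed the filter through its Day00 libraries (296 to 513 CPM), since no other library was above 106 CPM. Its Day00 calls among the filtered genes are thus not independent of the filter. In the second fit Pmepa1 passed by edgeR in Day06 against Day00 (adjusted p = 1.8e-09) and in siBard1 against nt (adjusted p = 0.014). It did not pass there in siWdr5 against nt. At this depth 1 count was 18.1 CPM in Day06 replicate 2 and 6.82 CPM in replicate 3, so that levels of Tgfbi, Ltbp2 and Smad7 in single libraries rest on few molecules. Transcript levels in a bulk library do not separate fewer cells of a type from less RNA per cell. All 10 fibroblast markers of the list had counts on each day and in nt, Mock, siWdr5, siBard1, siBrca1 and siEp300. The targets themselves were too low to check the labels: Wdr5 had 2, 3 and 4 counts in nt and 2, 3 and 2 in siWdr5, Bard1 had 2, 0 and 0 in nt and none in siBard1, and Brca1 had 0, 1 and 1 in nt and 1, 1 and 2 in siBrca1. A condition here therefore means the libraries labelled with that siRNA.

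The time course asks how the members changed from Day00 over the first days in reprogramming medium. The sources used here do not give the time between the addition of the medium and the Day00 harvest. Pmepa1 and Ltbp2 fell from Day00 to Day06, and Ltbp1 and Smad7 did not pass the test. Tgfbi, which had no count at Day00, did not pass the test. Across all days, 2 of the 5 members passed, Pmepa1 (adjusted p = 7.3e-13) and Ltbp2 (adjusted p = 0.00098), beside 42.5% of the filtered genes and 12.3% of the genes with at least 50 counts.

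Pmepa1, an inhibitor that sequesters receptor SMADs, was the member with the highest level at Day00, with 25, 14 and 55 counts, or 513, 296 and 455 CPM in replicates 1, 2 and 3. On Day01 it stood at 68.8, 85.5 and 56.9 CPM, and on Day06 at 29.7, 36.2 and 34.1 CPM. All 3 Day00 libraries lay above every other library of the series, which held for 0.888% of the genes with at least 50 counts. The drop was in place on the first day, by 2.50 ± 0.50 on the log2 scale (SE, adjusted p = 6.7e-05), and the log2 fold changes of Day02 to Day06 against Day00 ran from -2.60 to -3.62. Pmepa1 passed the test on each later day, where 9.89%, 11.6%, 10.9%, 18.7%, 31.9% and 22.2% of the filtered genes did on Day01 to Day06. Day06 was lower than Day00 by 3.62 ± 0.55 (SE, adjusted p = 1.1e-08) on the log2 scale, in 3 of 3 replicates. The ratio of counts was 12.98 in favour of Day00, with a 95% counting interval of 6.55 to 29.3. From Day01 on, the 18 libraries lay between 18.1 and 96.6 CPM, and no step from a day to the next passed the test for Pmepa1, where 4.81%, 2.82%, 11.9%, 4.78% and 7.87% of the filtered genes did.

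Ltbp2, a matrix protein that does not bind latent TGF-β, had 2, 6 and 10 counts at Day00, or 41.1, 127 and 82.8 CPM. It had 1 count in all on Day01, on Day02 and on Day05. On Day03 it had 1, 4 and 2 counts (17.5, 72.3 and 17.6 CPM), and on Day06 it had 2 counts, both in replicate 1. The Day00 libraries all lay above the Day06 libraries, which held for 10.1% of the genes with at least 50 counts, but the Day03 libraries overlapped those of Day00. Day06 was lower than Day00 by 3.14 ± 0.97 on the log2 scale (SE, adjusted p = 0.026), where 6.0% of genes with at least 50 counts passed, and the ratio of counts was 11.2 (95% counting interval 2.68 to 99.4). Day01, Day02 and Day05 passed too, where 2.19%, 2.64% and 8.57% of these genes did. Day03 (-1.32 ± 0.80, adjusted p = 0.54) and Day04 (-2.31 ± 0.82, adjusted p = 0.085) did not, beside 2.43% and 4.73%. The Day06 difference lost its call without replicate 2 (-2.48, adjusted p = 0.28) and without replicate 3 (-2.27, adjusted p = 0.45).

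Ltbp1, which anchors latent TGF-β to the matrix, stayed within its own spread over the days. It had 103, 63.5 and 99.3 CPM at Day00 and 74.2, 90.4 and 54.5 CPM at Day06, and the day means ran from 55.8 to 96.6 CPM. The log2 fold change of Day06 against Day00 was -0.43, with a 95% interval of -1.49 to 0.63, and the test across days gave an adjusted p of 0.62. The interval leaves room for a fall of more than 2-fold. The difference between the changes of Ltbp1 and Ltbp2 was not tested.

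Smad7, which blocks the activated type I receptor and lies at chr18:75367529-75395935 on the plus strand, was near the limit of counting. It had 0, 1 and 6 counts at Day00, 1, 1 and 2 at Day01 and 0, 1 and 1 at Day06. Its Day06 value against Day00 was -1.71 (95% interval -4.0 to 0.57, adjusted p = 0.50), and the ratio of counts was 4.35 in favour of Day00 with an interval of 0.828 to 42.9, so that a change of several-fold was not detectable at this depth.

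Tgfbi had 0 counts in all 3 Day00 libraries, while on Day06 it had 3, 1 and 2 counts, or 44.5, 18.1 and 13.6 CPM. Against a floor of 3 counts over the Day00 group, Day06 was at least 1.61-fold higher and Day05, with 8 counts, at least 1.87-fold higher. The 95% counting interval of the ratio reached down to 0.947 on Day06, so that no difference was within counting error there, and to 1.196 on Day05. The Day06 difference did not pass the test (adjusted p = 0.16 by edgeR), nor did that of Day05 (adjusted p = 0.098) or the test across days (adjusted p = 0.21). Before Day05, Tgfbi had 1 count on Day01, 6 on Day02, 1 on Day03 and 2 on Day04, so the libraries did not move one way.

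**Figure D1:**
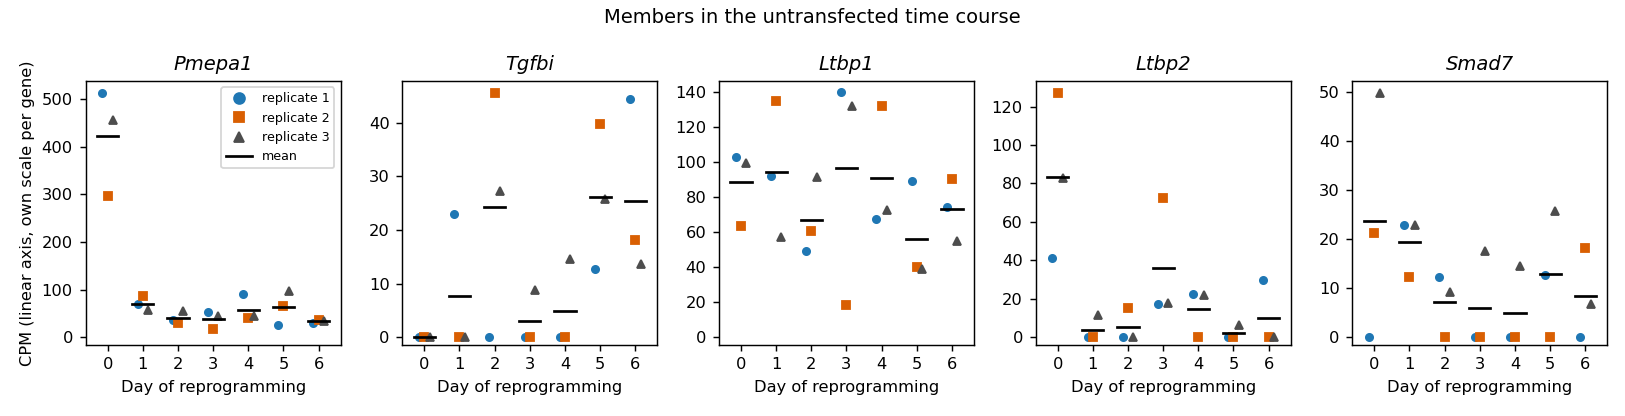
CPM of each member (linear vertical axis, own scale per panel) against the day of the untransfected time course, with a point per library marked by replicate and a bar at the mean of 3. Pmepa1 stands at 296 to 513 CPM on day 0 and at 18.1 to 96.6 CPM from day 1, while Ltbp1 day means stay between 55.8 and 96.6 CPM.

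The other genes of the pathway were taken from lists written with earlier results of these data known, so their counts are a description. They were read in the fit of 10366 genes, where 3.46% of genes were lower and 2.54% higher in Day06. Of the filtered genes, which hold more counts, 22.2% passed in either direction. Of 20 further TGF-β target genes tested, 15 fell and none rose by Day06, with a median log2 fold change of -2.71 against -0.0004 over all genes tested. Tagln, an actin-binding protein of contractile cells, had 323 ± 143 CPM (SD, n = 3) at Day00 and 1 count in the Day06 libraries, a ratio of counts of 89.5 (95% counting interval 15.6 to 3583). Tgfb1i1, a focal adhesion protein, went from 43 counts to 1. Postn, a matricellular protein, fell by 4.67 ± 0.60 and Lox, a collagen crosslinking enzyme, by 4.46 ± 0.40 on the log2 scale (SE). Of 7 further genes of latency and activation, 4 fell and 1 rose: Thbs1, an activator of latent TGF-β, fell by 2.57 ± 0.18 from 3704 ± 288 CPM, Fbn1, the fibrillin that holds latent complexes, fell by 2.00 ± 0.48, and its relative Fbn2 rose by 1.80 ± 0.53. The integrins Itgav and Itgb1 also fell, by 1.10 ± 0.25 and 1.77 ± 0.25.

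Among the 5 receptors tested, Tgfbr1, the Alk5 receptor itself, did not pass. It had 51.4 ± 11.3 CPM at Day00 and 17.8 ± 2.82 at Day06 (SD, n = 3, log2 fold change -1.38, 95% interval -3.02 to 0.26, adjusted p = 0.42). Among 4 ligands, Inhbb, an activin subunit, rose by 3.63 ± 0.45 (SE) and Inhba, another, fell from 19 counts to 1, a ratio of 23.6 with an interval of 3.75 to 981. Tgfb2 did not pass, at 154 ± 145 CPM at Day00 and 140 ± 33.2 at Day06. Of 9 further negative regulators, Skil, a SMAD corepressor, fell by 2.85 ± 0.80 and Dcn, a proteoglycan that binds TGF-β, rose by 3.18 ± 0.52. The fibroblast state moved over the same days: the summed level of the 10 fibroblast markers was 6219 to 7738 CPM in the Day00 libraries, 3530 to 4117 on Day01 and 2585 to 3605 on Day06. 5 of the 10 fell and 1, Lum, rose. Epithelial markers summed to 24.8 to 63.5 CPM at Day00, where Cdh1, Epcam, Krt18 and 5 others of the 11 were at 0, and to 104 to 307 CPM at Day06. Macrophage markers summed to 132 to 246 CPM at Day00, where Ptprc, Csf1r, Tyrobp and C1qa of the 8 were at 0, to 61.1 to 68.8 CPM on Day01 and to 18.1 to 89.0 CPM on Day06. Lyz2, the 1 macrophage marker tested, was lower on Day01 (log2 fold change -2.60 ± 0.73, SE, adjusted p = 0.024). The part of the fibroblast, epithelial and macrophage markers in the fall of Pmepa1 and Ltbp2 was not tested.

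The control siRNA and Mock were set against untransfected Day06 cells and against each other. Pmepa1 had 0, 1 and 0 counts in nt, against 2, 2 and 5 in Day06, a ratio of counts of 8.33 in favour of Day06 with an interval of 1.15 to 365. Tgfbi had none in nt against 6 counts in Day06, so that it was at least 1.85-fold lower by the floor of 3 counts. Neither passed: Pmepa1 had an adjusted p of 0.079 and Tgfbi of 0.11. None of the 5 members was called in nt against Day06, where 26.6% of the filtered genes and 5.96% of the wider set passed. By edgeR 2 members had an unadjusted p under 0.05, limma called 0, and DESeq2 called 0 with 3 members left without an adjusted p. With all transfected conditions together set against Day06, the log2 fold changes of Pmepa1 (-1.09, adjusted p = 0.071) and Tgfbi (-1.33, adjusted p = 0.10) were below 0 in the transfected cells and were again not called, beside 37.5% and 14.5% of genes. Without replicate 2 Tgfbi was called there, at -2.05 with an adjusted p of 0.041.

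Mock against nt passed in none of the members, with 1 unadjusted p under 0.05 by edgeR and 0 calls by limma, while DESeq2 gave none of the 5 an adjusted p. Over all genes, 1.56% of the filtered genes and 0.26% of the wider set were called. That 1 was Tgfbi, with 0, 1, 1, 4 and 0 counts in Mock, at least 2.38-fold above nt by the floor (adjusted p = 0.40 by edgeR). Pmepa1 was at 51.6, 34.3, 0, 0 and 0 CPM in Mock, so its counts came from replicate 1 alone. Ltbp1 was at 50.0, 89.7 and 40.9 CPM in nt and at 59.7 to 144 CPM in Mock.

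**Figure D2:**
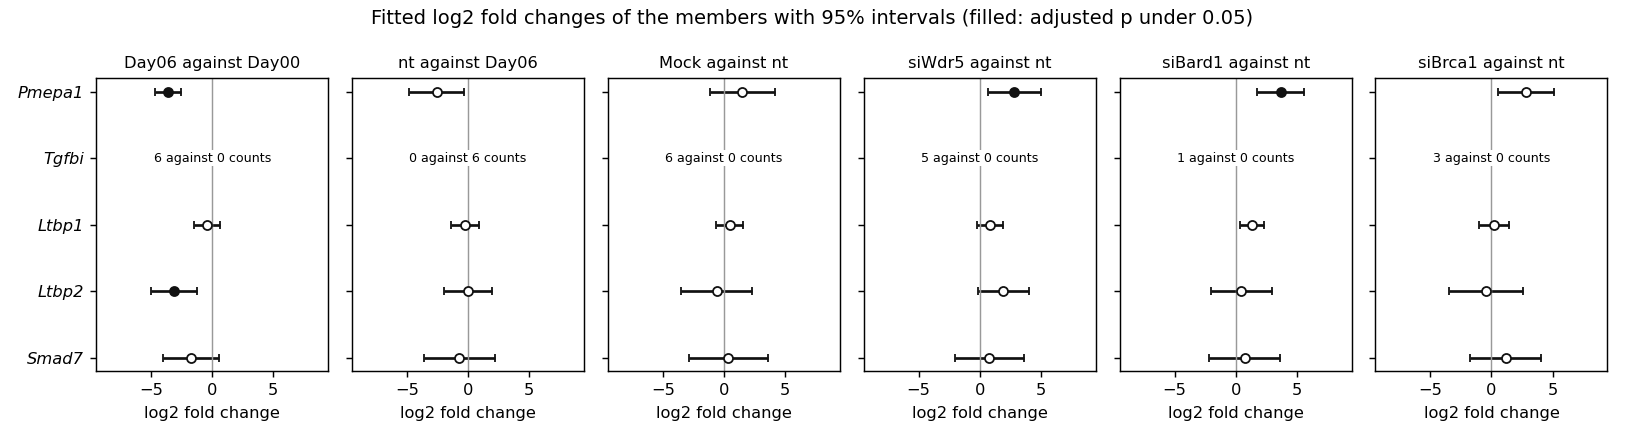
Fitted log2 fold changes (horizontal axis) of the 5 members in 6 comparisons with 95% intervals, filled where the adjusted p is under 0.05, and counts in place of a point where a group had none. Pmepa1 and Ltbp2 are filled in Day06 against Day00, and Pmepa1 in siWdr5 and siBard1 against nt.

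The screen asks which siRNAs moved the members away from nt. Of 165 pairs of a member and an siRNA, 2 passed, both of Pmepa1, beside 2.57% of pairs over the filtered genes and 0.545% over the wider set. 25 pairs had an unadjusted p under 0.05. DESeq2 called 2 pairs, with 155 pairs left without an adjusted p, and limma called none. Tested over all siRNA terms together, Ltbp1 (adjusted p = 0.0021) and Pmepa1 (adjusted p = 0.0064) differed between conditions, beside 44.8% of the filtered genes, while Ltbp2 (adjusted p = 0.54), Smad7 (0.70) and Tgfbi (0.27) did not pass, beside 13.4%.

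Pmepa1 was highest in siBard1, an siRNA pool against the partner of Brca1 in a ubiquitin ligase, with 5, 3 and 12 counts, or 79.8, 51.4 and 83.3 CPM. All 3 lay above the nt libraries, of which 1 held a single count, which held for 7.93% of the genes with at least 50 counts, but not all above the highest Mock library at 51.6 CPM, as was the case for 1.88% of those genes. The log2 fold change against nt was 3.70 ± 0.99 (SE, adjusted p = 0.0056, higher in 3 of 3 replicates), where 10.3% of the filtered genes and 2.2% of the wider set passed, and the ratio of 20 counts to 1 was 18.8 with an interval of 3.01 to 780. The single nt count makes that size uncertain. Against the mean of the other siRNAs, which does not use nt, siBard1 was higher by 2.24 ± 0.46 (adjusted p = 0.00010), where 13.2% passed. The call against nt was lost without replicate 1 (3.41, adjusted p = 0.059), without replicate 3 (2.69, adjusted p = 0.28) and by limma on the deposited log2 values (2.21, adjusted p = 0.062). siBard1 still stood at about the level of Day01, and far under the 296 to 513 CPM of Day00.

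In siWdr5, an siRNA pool against a subunit of histone H3K4 methyltransferase complexes, Pmepa1 had 4, 2 and 4 counts, or 52.8, 28.4 and 38.0 CPM. The libraries lay above those of nt, as for 11.0% of the wider set of genes. The log2 fold change was 2.84 ± 1.11 (adjusted p = 0.043, higher in 3 of 3 replicates), where 27.2% of the filtered genes and 6.63% of the wider set passed, and the ratio of 10 counts to 1 was 9.92 (interval 1.41 to 430). This call was lost without replicate 1 (2.36, adjusted p = 0.21), without replicate 3 (2.11, adjusted p = 0.31), without the replicate block (adjusted p = 0.055), with nt and Mock pooled (1.95, adjusted p = 0.053), in the wider set of genes (adjusted p = 0.11) and by limma (1.34, adjusted p = 0.31). Against the mean of the other siRNAs it was 1.35 ± 0.51 (adjusted p = 0.027, where 38.3% passed). Ltbp2 was at its highest among transfected conditions in siWdr5, at 39.6, 14.2 and 47.5 CPM. It did not pass against nt (1.93, adjusted p = 0.30) and passed against the other siRNAs (2.18 ± 0.60, adjusted p = 0.0041, where 17.0% passed).

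siBrca1 had 3, 1 and 3 counts of Pmepa1, or 62.0, 22.8 and 35.3 CPM. Its libraries lay above those of nt too, as for 5.61% of the wider set. The log2 fold change of 2.82 did not pass (95% interval 0.51 to 5.13, adjusted p = 0.18), beside 4.22% of the filtered genes and 0.733% of the wider set. No member was called in siBrca1, with 2 unadjusted p under 0.05 by edgeR and 0 calls by limma, while DESeq2 gave no member an adjusted p. Compared directly, siWdr5, siBard1 and siBrca1 passed in no member in 15 tests, with 1 unadjusted p under 0.05 by edgeR, 0 calls by limma, and 0 by DESeq2 with 12 tests left without an adjusted p. Pmepa1 in siWdr5 against siBard1 was -0.86, with a 95% interval of -2.14 to 0.42, and in siBard1 against siBrca1 it was 0.88 (-0.52 to 2.28), so that a difference of more than 2-fold remained possible. Of the filtered genes, 8.36% passed in siWdr5 against siBard1, 9.99% in siWdr5 against siBrca1 and 0.863% in siBard1 against siBrca1, and of the wider set 1.78%, 1.97% and 0.222%. The single unadjusted p was that of Ltbp1 in siBard1 against siBrca1 (1.12, adjusted p = 0.49).

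Ltbp1 also had its highest mean in siBard1, at 208, 120 and 132 CPM, each above the nt libraries, as for 7.93% of the wider set, but not each above Mock, whose highest library was at 144 CPM. The log2 fold change of 1.36 ± 0.50 did not pass against nt (adjusted p = 0.065). It passed with RLE scaling (adjusted p = 0.04999), with only the libraries of siBard1 and nt in the fit (1.43, adjusted p = 0.019) and against the mean of the other siRNAs (1.39 ± 0.32, adjusted p = 0.00078, where 13.2% passed). Next in the order came siMtf1 at 113 CPM (2 libraries), siEp300 at 109 ± 45.3, siWdr5 at 71.1 to 123 and siSetdb1 at 99.2 ± 46.0 (SD, n = 3), which overlapped one another. siEp300, against a histone acetyltransferase, had 9, 4 and 31 counts. It did not pass against nt (1.03, adjusted p = 0.22), while its difference from the other siRNAs passed (1.05 ± 0.31, adjusted p = 0.012, where 13.0% passed). At the low end Ltbp1 had 2, 0 and 0 counts in siPou5f1, a pool against the gene of Oct4. It was lower than the other siRNAs by 2.22 ± 0.77 on the log2 scale (adjusted p = 0.031, where 15.9% passed), while against nt it had an adjusted p of 0.18. These comparisons with the other siRNAs called 6 of the 165 pairs, beside 4.28% over the filtered genes and 1.46% over the wider set. Pmepa1 had no count in 4 siRNAs and Ltbp2 in 6, so the sizes of their differences from the other siRNAs are uncertain.

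The order of Pmepa1 over the 35 transfected conditions placed nt at rank 31, with 4.99 ± 8.63 CPM (SD, n = 3), and siApex1, siBptf, siHdac1 and siNcor1 after it with no count in any library. Mock stood at rank 18 with 17.2 ± 24.3 CPM (SD, n = 5). After siBard1 came siJarid2 at 43.5 ± 55.4, siBrca1 at 40.0 ± 20.0, siWdr5 at 39.7 ± 12.3 and siEp300 at 39.1 ± 29.4 CPM, and these 4 did not differ beyond their spread. In all, 29 of the 33 siRNAs had at least 1 count of Pmepa1, against the single count of nt. Tgfbi had a count in 28 of the 33 siRNAs and none in nt, with 13 unadjusted p under 0.05 and none adjusted, and with nt at 0 no siRNA could have been lower. Tgfbi was highest in siCbx7 at 33.4 ± 40.8, in siTead2 at 33.2 ± 9.98 and in Mock at 32.5 ± 40.6 CPM, and 56 of the 106 transfected libraries had none. Ltbp2 was absent from 57 and Smad7 from 77 of these libraries. The highest Smad7 mean was that of siTdrd3 at 27.8 ± 40.5 CPM, where it did not pass against the other siRNAs (log2 difference 2.64, adjusted p = 0.069). Since 13 of the 33 siRNAs had no Smad7 count, the size of that difference is uncertain. Against nt, no siRNA had an unadjusted p under 0.05 for Smad7 or Ltbp2.

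**Figure D3:**
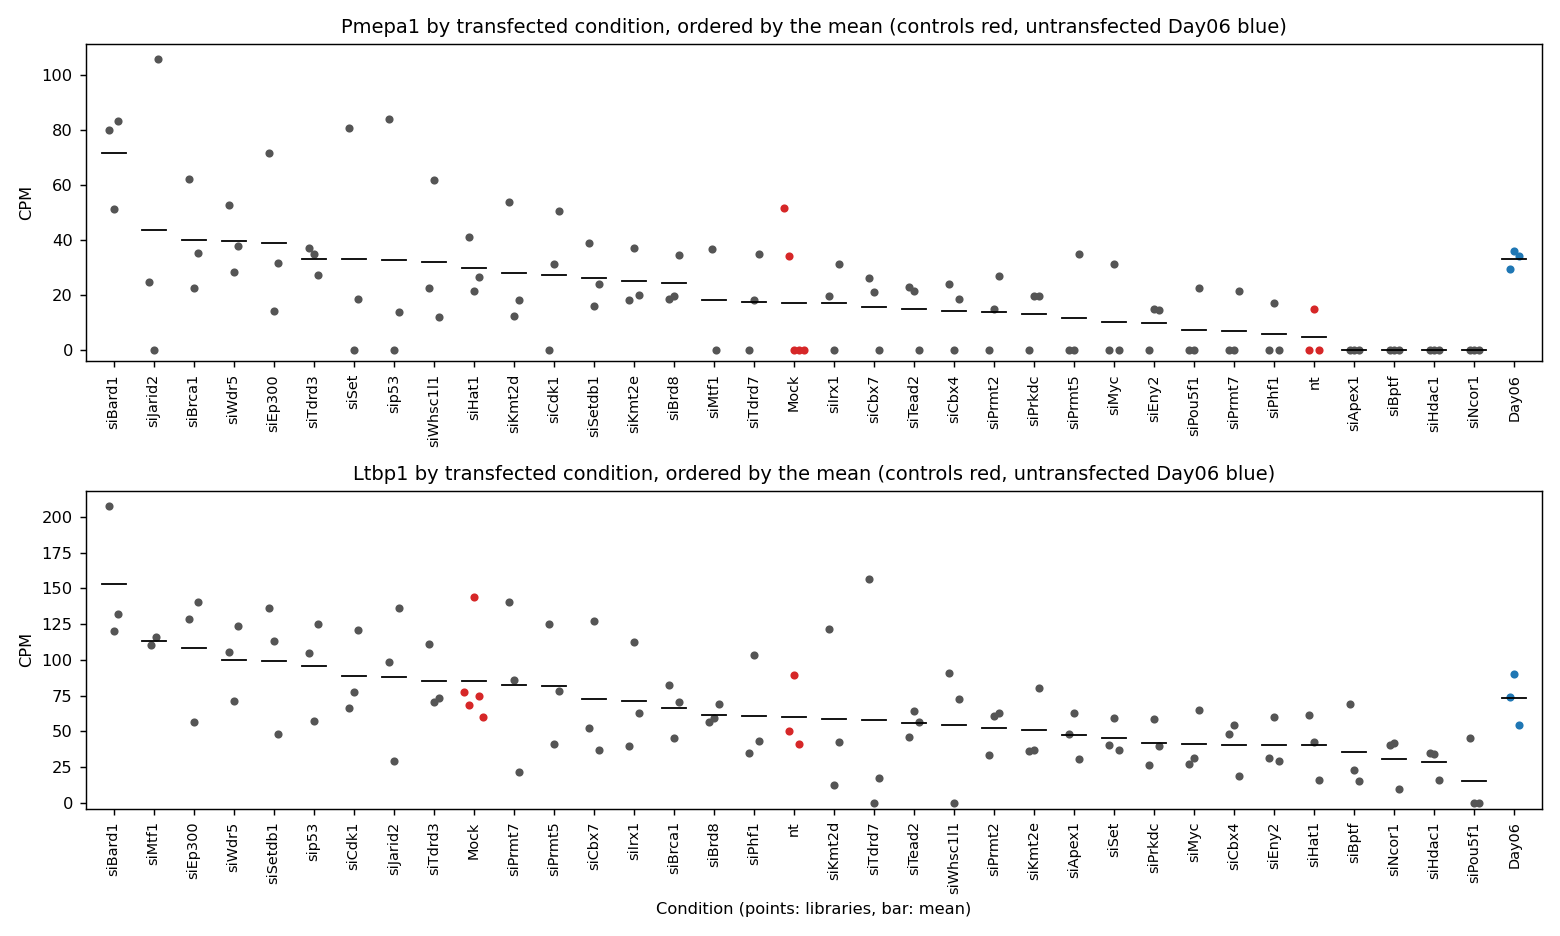
CPM of Pmepa1 (top) and Ltbp1 (bottom) in each transfected condition, ordered by the mean, with a point per library, a bar at the mean, nt and Mock in red and untransfected Day06 in blue at the right. siBard1 is at the left in both panels, at 71.5 CPM of Pmepa1 and 153 CPM of Ltbp1, and nt is at rank 31 for Pmepa1.

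Some of the other pathway genes were higher in siWdr5, siBard1 and siBrca1, and also in siEp300. Of 48 pathway genes tested besides the members, 13, 10, 7 and 6 rose in these 4, while 1 fell in siBrca1 and 1 in siEp300, Dcn in both. Of the 20 target genes among them, 7 rose in siWdr5, 7 in siBard1, 4 in siBrca1 and 5 in siEp300, and none fell, where 3.26%, 1.26%, 0.453% and 0.56% of the wider set rose. Of the filtered genes, which hold more counts, 27.2%, 10.3% and 4.22% passed in either direction in siWdr5, siBard1 and siBrca1. Median log2 fold changes of the target genes in the 4 siRNAs were 2.01, 1.48, 1.42 and 1.20, beside 0.13, -0.0048, 0.0042 and 0.065 over all genes tested. Over the other 29 siRNAs, 4 target genes rose in siCdk1, with a median of 1.37, where 0.309% of the wider set rose. Medians in siPrmt5 (1.18), siMtf1 (1.18) and siIrx1 (1.13) were near that of siEp300, and the lowest was -0.29 in siNcor1. In each of 6 siRNAs 1 target gene rose, beside 0.0482% of the wider set in siIrx1, 0.0772% in siJarid2, 0.106% in siKmt2d, 0.0675% in siPrmt5, 0.0772% in siTead2 and 0.222% in sip53. In siPou5f1 1 fell, where 0.434% was lower, and 21 siRNAs had no call. In siBard1, Palld, an actin-associated protein, had 35 counts against 2 in nt, a ratio of 16.5 with an interval of 4.23 to 141, and Acta2, smooth muscle actin, was at 418 ± 144 CPM against 66.8 ± 14.4 (log2 fold change 2.65 ± 0.35, SE). Cnn1, calponin, had 18 counts against 1, and Lox 19 against 2. In siWdr5, Tagln had 13 counts against 1, a ratio of 12.9 with an interval of 1.94 to 548, and Palld 21 against 2, while Timp3, an inhibitor of matrix proteases, rose by 2.83 ± 0.39 and Col1a1, a fibrillar collagen chain, by 2.67 ± 0.25. In siBrca1, Acta2 rose by 2.11 ± 0.40, Timp3 by 1.75 ± 0.48, Col1a1 by 1.30 ± 0.31 and Hmga2, a chromatin protein, by 0.76 ± 0.18. In siEp300, Cnn1 had 36 counts against 1, a ratio of 24.8 with an interval of 4.18 to 1008, Palld had 34 against 2, Acta2 rose by 2.84 ± 0.34 and Timp3 by 2.20 ± 0.41. Without the replicate block the counts of target genes were 4 in siBard1 and 1 in siBrca1, and limma called 2 in siWdr5, 4 in siBard1 and 0 in siBrca1 and siEp300. Without replicate 1 they were 4 in siBard1, 2 in siBrca1 and 3 in siEp300, without replicate 2 they were 2 in siBrca1, and without replicate 3 they were 3, 1 and 2. Against the other siRNAs 14 were higher in siWdr5, where 17.0% of the wider set passed in either direction. The nt control is shared by all these comparisons.

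Of the 7 further genes of latency and activation, Thbs1 rose in siWdr5 (2.73 ± 0.22), siBard1 (2.08 ± 0.23), siBrca1 (2.11 ± 0.24) and siEp300 (1.67 ± 0.24), and Fbn2 rose in each of the first 3 as well. Fbn1 rose in siWdr5. The ligand Inhbb rose by 1.74 ± 0.26 in siWdr5, 0.96 ± 0.28 in siBard1 and 1.21 ± 0.29 in siBrca1, and Tgfb2 by 2.25 ± 0.48 in siWdr5. The coreceptor Tgfbr3 had 16 counts in siWdr5 against 1 in nt. Dcn fell by 1.53 ± 0.37 in siBrca1 and by 1.23 ± 0.30 in siEp300. In nt against Day06 the direction was the other, with 3 target genes lower (Acta2, Timp3 and Col1a1) and none higher, where 2.5% of the wider set was lower. Fbn2, Thbs1 and Tgfb2 were lower there as well. Of the 10 fibroblast markers, 3 were also lower in nt than in Day06 (Col1a1, Col1a2 and Fbln2) and 1, Lum, was higher. In that comparison 5.96% of the wider set passed in either direction. Some fibroblast markers were higher in siWdr5, siBard1, siBrca1 and siEp300 too. The 10 summed to 1789 to 2698 CPM in nt, 2343 to 3373 in Mock, 5058 to 5904 in siWdr5, 3084 to 3896 in siBard1, 2690 to 3740 in siBrca1 and 2709 to 4146 in siEp300, and 6, 4, 2 and 3 of the 10 rose in the 4 siRNAs, while Lum fell in siEp300. In sip53, with 1 target gene higher, they summed to 3191 to 3843 CPM, in siCdk1 to 2805 to 3859 and in siPou5f1 to 1126 to 1419. Col1a1 is in both lists. The 11 epithelial markers summed to 147 to 150 CPM in nt, to 52.8 to 114 in siWdr5, 0 to 90.3 in siBard1, 20.7 to 137 in siBrca1 and 140 to 184 in siEp300, so that only siEp300 overlapped nt among these 4. The 9 pluripotency markers summed to 114.4 to 183 CPM in nt, to 28.5 to 71.1 in siWdr5, 63.9 to 137 in siBard1, 62.0 to 114.0 in siBrca1 and 40.7 to 113.5 in siEp300, and siBard1 alone overlapped nt. No tested gene of these 2 lists was called in any of the 4. The part of these markers in the Pmepa1 and Ltbp1 values was not tested.

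**Figure D4:**
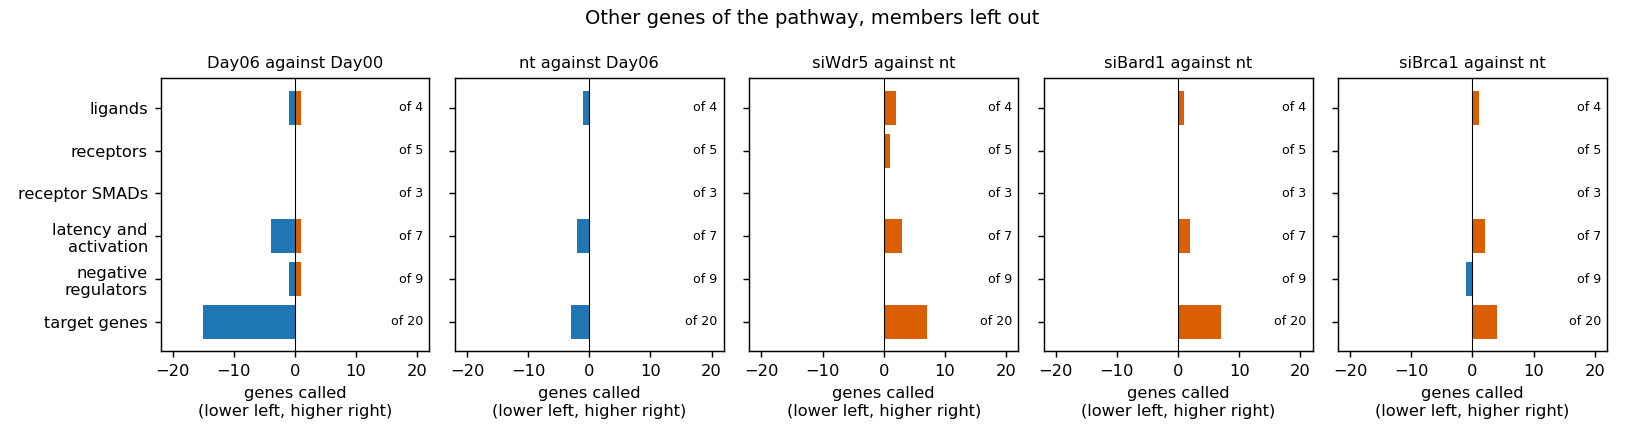
Number of pathway genes called lower (blue, to the left) and higher (orange, to the right) at an adjusted p under 0.05, by list and comparison, with the number tested at the right of each row and the 5 members left out. 15 of 20 target genes are lower in Day06 against Day00, and 7, 7 and 4 are higher in siWdr5, siBard1 and siBrca1 against nt.

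Over the means of the 42 conditions, the genes whose log2 CPM pattern was most like that of Pmepa1 were Lox (Pearson r = 0.86), Actn1 (0.83) and Fhl2 (0.83). For Ltbp1 they were Lmna (0.75), Prrx2 (0.74) and Timp2 (0.74). Between the members themselves, mean CPM of Pmepa1 and Ltbp1 had r = 0.29 and Spearman's rho = 0.62 over the 42 conditions and r = 0.69 and rho = 0.61 over the 35 transfected ones. Pmepa1 and Ltbp2 had r = 0.77 over the 42 but rho = 0.075, and r = 0.097 over the 35. Pmepa1 and the summed fibroblast markers had r = 0.78 and rho = 0.67 over the 42 conditions, and r = 0.56 and rho = 0.55 over the 35. For Ltbp1 and the markers the values were r = 0.52 and rho = 0.66, and then r = 0.58 and rho = 0.62. All points share the 3 pools and their scaling, and conditions are not independent replicates.

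**Figure D5:**
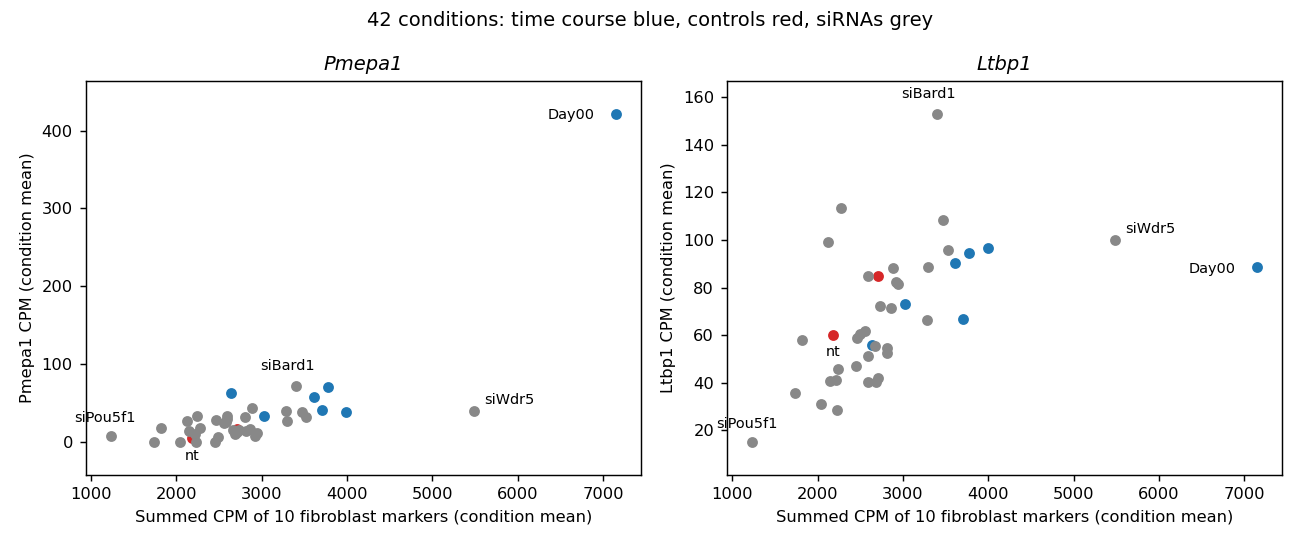
Mean CPM of Pmepa1 (left) and Ltbp1 (right) against the summed CPM of 10 fibroblast markers for the 42 conditions, with the time course in blue, nt and Mock in red and siRNAs in grey. Day00 stands apart for Pmepa1 at 422 CPM and a marker sum of 7151 CPM, and siBard1 has the highest Ltbp1 at 153 CPM with a marker sum of 3401 CPM.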

How the data were processed

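RNA of reprogramming MEFs was profiled by CEL-Seq2 in 3 sequenced pools. The authors mapped reads to mm10 (GRCm38) with Bowtie2, collapsed molecular barcodes with the CEL-Seq2 pipeline and deposited a table of counts per gene. They also deposited log2 values, which they had normalized and from which they had regressed the batch, and these were used only for the limma alternative. Libraries in both tables were analysed (127 of 129).

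Counts were tested with edgeR 4.0.16 (quasi-likelihood, TMM, filterByExpr by condition) in R 4.3.3, with a term per condition and the replicate as a block, all 127 libraries in 1 fit, and Benjamini-Hochberg adjustment over all genes at 0.05. Members and list genes that failed filterByExpr were read from a fit of all 10366 genes with at least 50 counts. SE was taken as the fold change over the root of the test statistic, and 95% intervals from it are approximate. Counting intervals are exact and conditional on the sum of counts, cover counting error only, and bounds use a floor of 3 counts over a group. DESeq2 1.42.0, limma 3.58.1, RLE scaling, other controls and left-out replicates were tried. The fit was tested on simulated data for filtered genes only, with changes set in Day06 for genes above 3 expected counts per library. The simulation therefore does not cover the second fit or members at lower counts.

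The replicate number marks a shared pool, per the labels. Median correlation of deviations from the condition mean was 0.0800 for libraries of the same number and -0.0527 for different numbers. The study calls the replicates independent and does not say whether they came from separate MEF isolations. Column names do not separate the Mock libraries within a replicate, and the 1 Mock column that the log2 table holds for replicate 3 was matched by correlation (r 0.986 against 0.0136). The members and lists were chosen with earlier results of these data known. From each pathway list, up to 4 called genes of largest absolute fold change per comparison are named, and Itgav, Itgb1, Tgfbr1, Tgfb2 and Lum were named after their values were seen. Like-pattern genes are the 3 of highest Pearson r over condition means of log2 CPM (prior count 2, replicate removed) among filtered genes. Sequences came from RefSeq promoters (GRCm38.p6) and the study's siRNA list.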

Additional observations from a re-analysis of the deposited data

Results flagged for a closer look

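Only the Mock group, with 5 libraries, was large enough for a check of single libraries, and the gap of its most distant library was set against Dixon's critical value of 0.71 for each of the 5 members. 3 values stood out: Ltbp1 at 144 CPM in 1 replicate 2 library (5 counts, gap over range 0.79), Ltbp2 at 24.8 CPM in the other replicate 2 library (1 count), and Smad7 at 14.9 CPM in the replicate 3 library (1 count). The last 2 are single counts in groups otherwise at 0, where the gap over range is 1.0, so that such a group is always flagged. The critical value assumes continuous values, so its rate of about 1 in 20 groups does not hold for counts this low. Pmepa1 (0.33) and Tgfbi (0.65) stayed under the critical value.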

How the results depend on the processing

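Direction was compared only for single members with an unadjusted p under 0.05. The comparisons were Day06 against Day00, nt and transfected conditions against Day06, and siWdr5, siBard1 and siBrca1 against nt. None of these fold changes reversed under an alternative that gave it an adjusted p. Counts of called genes were compared by size only. Among the recomputed counts of called genes, 113 stayed close to the reported count, 39 fell well below it and 6 rose well above it. With DESeq2, 1 member was called over the time course and 1 in Day06 against Day00, in place of 2, where 3 members had no adjusted p. With only the Day00 and Day06 libraries 1 was called, Pmepa1, the single member then tested. Leaving out a replicate gave 1 to 2 members over the time course, 1 to 2 in Day06 against Day00 and 0 to 1 in the transfected conditions against Day06.

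Of the member and siRNA pairs, 2 against nt, 1 remained with the count minimum, 1 without the replicate block and 1 with nt and Mock pooled, each time Pmepa1 in siBard1, while limma called 0 and the other siRNAs as control gave 6. Leaving out a replicate gave 0 to 2 pairs and 0 to 2 members over the screen, and limma gave 0 over the screen. For siWdr5 the single call became 0 with the count minimum, without the replicate block, by limma and with nt and Mock pooled, 2 with the other siRNAs as control, and 0 to 1 without a replicate. For siBard1 it became 2 with RLE scaling and with the other siRNAs, 0 by limma, and 0 to 1 without a replicate. Target genes higher in siWdr5 were 7, with 2 by limma and 14 against the other siRNAs, where 17.0% of the wider set passed in either direction. In siBard1 they were 7, with 4 by limma, 4 without the replicate block and 3 to 6 without a replicate. In siBrca1 they were 4, with 0 by limma, 1 without the block and 1 to 2 without a replicate. In siEp300 they were 5, with 3 by DESeq2, which gave 14 of the 20 no adjusted p, 0 by limma and 2 to 5 without a replicate. These list counts were recomputed by alternatives chosen after seeing the data. Apart from the values named here, every count stayed close to the reported one without the replicate block. The causes were not tested.

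RLE scaling moved the median of all genes by -0.161 in Day06 against Day00, -0.142 in nt against Day06 and 0.174 in siWdr5 against nt, on the log2 scale. Depth limits Tgfbi, Ltbp2 and Smad7 most, since they had 62 to 114 counts over 127 libraries.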

Other observations

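The BMP arm of the TGF-β superfamily, which signals through other SMADs and which Alk5 inhibitors do not target, was also measured. Of its 10 genes tested, 1 fell and none rose in Day06 against Day00, where 3.46% of the wider set was lower and 2.54% higher: Grem1, a secreted BMP antagonist, from 890 ± 143 to 268 ± 15.02 CPM (SD, n = 3, log2 fold change -1.79 ± 0.24, SE). In nt against Day06, Id3, an inhibitor of differentiation factors and a BMP target, fell by 1.44 ± 0.41 on the log2 scale, the 1 gene called, where 2.5% was lower. In siWdr5 against nt, Id3 rose by 2.08 ± 0.39 and Grem1 by 1.01 ± 0.24, and in siBard1 Id1 rose by 1.78 ± 0.44 and Grem1 by 1.33 ± 0.23. In siEp300 Id3 rose by 1.95 ± 0.38. These 2, 2 and 1 genes stand beside 3.26%, 1.26% and 0.56% of the wider set that rose.

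Markers of other cell types were summed too. Over the 42 conditions, mean summed levels ran from 0 to 176 CPM for macrophage markers (highest in Day00), 0 to 35.4 for endothelial markers, 0 to 80.1 for skeletal muscle markers and 15.3 to 211 for neural markers, beside 1231 to 7151 for fibroblast markers. Pluripotency markers ran from 3.80 to 291 CPM and epithelial markers from 15.7 to 372 CPM. In the 2 libraries left out for low quality, the only member count was 1 of Ltbp1 in siMtf1 replicate 3, out of 7981 counts.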
